A study of Mus musculus with 9 samples.

Results

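The comparison set 1 Smarcc1 knockdown library against 1 control library, both harvested on day 6 of the differentiation of female mouse embryonic stem cells (mESCs). The cells were F1 hybrids of the FVB and CAST strains, expanded in 2i and weaned into differentiation medium, and in both libraries a hairpin (shRNA) retrovirus was added on day 2, with puromycin selection on day 3. The knockdown library carried the hairpin Smarcc1.6 and the control library carried the non-silencing hairpin Nons. The measure was percent GpC methylation from NOMe-seq, a sequencing assay of nucleosome occupancy, in consecutive windows of the mm10 genome. Windows with a value in both libraries were taken, which were 832369 of 833294 deposited windows, of which 788986 lay on autosomes and 43142 on the X chromosome. The reads of both X alleles were merged, so the active and the inactive X cannot be told apart. There was 1 library on each side and no replicate, so no difference has a p-value, and every value describes these 2 libraries only. The rest of the series, used only as a reference, was 1 library of undifferentiated cells at day 0 and for each of days 4, 5 and 7 a Nons library and a Smarcc1 knockdown library.

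Smarcc1 is a core subunit of BAF, the mammalian SWI/SNF complex, which uses ATP to slide and evict nucleosomes, with Smarca4 as one of its catalytic subunits. NOMe-seq exposes fixed nuclei to an enzyme that methylates GpC cytosines in linker DNA and nucleosome-free promoters but cannot reach those wrapped around a nucleosome. Bisulfite sequencing then reads the mark, so that accessible DNA has a high percent GpC methylation. In differentiating female mESCs, Xist RNA is induced from 1 of the X chromosomes and starts the silencing of that chromosome, and the series asked what the loss of Smarcc1 did to accessibility while this was under way.

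The hairpin is shown because it is the only difference by design between the 2 libraries. The 22-base target of Smarcc1.6, the reverse complement of the guide strand, lay on the plus strand at chr9:110177472-110177493 (mm10), inside coding exon 13 of transcript Smarcc1-201. Its last 21 bases, in capitals, were found in 5 annotated transcripts, all of Smarcc1, whereas those of the Nons hairpin were found in 0 mouse transcripts.
Smarcc1.6 target: gCAGGATGAAGAAGCAGTTACA

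NOMe-seq reads accessibility only at the cytosines of GpC dinucleotides, and the windows were drawn so that each held about as many of them, with a median of 118 in the mm10 sequence (interquartile range 113 to 126). The 4 promoter stretches printed here show where such cytosines fall at the highest and the lowest of the promoters named further on by their mean over 3 windows (Kcna6 and Kmt5c) and of the CpG-rich X promoters (Sh3kbp1 and Rlim). Each is the stretch from 250 to 51 bases before a RefSeq start, on the gene's strand and from GRCm38.p6, with every GpC in capitals. They lie at chr6:126740725-126740924 (minus strand), chr7:4739877-4740076 (plus), chrX:159627022-159627221 (plus) and chrX:103981336-103981535 (minus).
Kcna6: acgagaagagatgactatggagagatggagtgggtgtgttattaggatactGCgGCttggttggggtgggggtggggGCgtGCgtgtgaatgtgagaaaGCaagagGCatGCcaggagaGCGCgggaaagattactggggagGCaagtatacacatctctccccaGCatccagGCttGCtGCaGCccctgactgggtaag
Kmt5c: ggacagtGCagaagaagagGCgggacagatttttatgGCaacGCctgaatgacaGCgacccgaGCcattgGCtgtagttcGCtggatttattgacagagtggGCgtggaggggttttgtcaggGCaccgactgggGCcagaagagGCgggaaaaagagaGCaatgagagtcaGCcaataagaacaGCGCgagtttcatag
Sh3kbp1: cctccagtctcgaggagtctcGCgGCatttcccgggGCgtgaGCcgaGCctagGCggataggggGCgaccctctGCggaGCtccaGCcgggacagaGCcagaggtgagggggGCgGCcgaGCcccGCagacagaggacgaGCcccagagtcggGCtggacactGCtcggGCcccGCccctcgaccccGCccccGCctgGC
Rlim: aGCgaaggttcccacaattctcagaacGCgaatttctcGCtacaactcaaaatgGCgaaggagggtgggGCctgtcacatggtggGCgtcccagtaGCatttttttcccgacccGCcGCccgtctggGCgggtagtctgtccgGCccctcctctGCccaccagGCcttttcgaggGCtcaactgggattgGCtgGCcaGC
They held 15, 16, 23 and 17 GpC dinucleotides respectively, of which 5, 6, 6 and 5 were followed by a G and so overlap a CpG, a context that the NOMe filter removes. Over 32851 RefSeq promoters the same stretch held a median of 12 GpC (5th to 95th percentile 4.0 to 29.0).

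The knockdown library was more methylated as a whole. The autosomal median was 11.9% GpC methylation in the knockdown and 10.3% in Nons, and 57.8% of autosomal windows were higher in the knockdown. The median difference between the libraries, called here the library-wide shift, was 1.5 percentage points (SD over the 19 autosomes 0.0720), and the ratio of the autosomal means was 1.13. The X chromosome moved with the autosomes, from a median of 10.3% in Nons to 11.8% in the knockdown. The shift was -2.80 points at day 4, -1.08 points at day 5 and 0.657 points at day 7. The whole knockdown library was thus lower than its control at days 4 and 5 and higher at days 6 and 7. The unmethylated end moved too, with 0.578% of autosomal windows at 0 in the knockdown and 1.46% in Nons. A deposited percent carries no read depth, so no counting interval can be given. A difference in enzyme activity or bisulfite conversion between 2 libraries and a genome-wide difference in accessibility cannot be told apart by this design. All differences below therefore have the 1.5 points removed, and are called shift-removed.

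Single windows of the 2 libraries had little in common, with a Pearson correlation of 0.121 over windows. The shift-removed difference of a window had an SD of 8.15 points, with 5th and 95th percentiles of -13.3 and 13.0, and its correlation with the difference of the next window was 0.009. Of autosomal windows, 9.72% were at least 10 points higher in the knockdown and 10.1% at least 10 points lower. A change of 10 points in a single window was common in both directions.

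The shift ran evenly along the genome. In 2395 autosomal bins of 1 Mb, each with at least 100 windows, the mean was above that of Nons in 2389 bins (99.7%) before the shift was removed. After its removal the bins ranged from -1.69 to 1.82 points with an SD of 0.490, while the median standard error (SE) of a bin over its windows was 0.441. The 153 X bins had the same SD, 0.490, and a mean of -0.0436 beside -0.0702 for autosomal bins. Bins had stable levels, since odd and even windows of a bin correlated at 0.663 in the knockdown and 0.636 in Nons, and the 2 libraries at 0.758. The differences between the libraries had no such stability, with a correlation of 0.075 between odd and even windows. Bins at least 1 point higher were 1.38% of autosomal bins (33) and those at least 1 point lower 2.88% (69), and of 153 X bins 3 were higher and 5 lower.

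**Figure D1:**
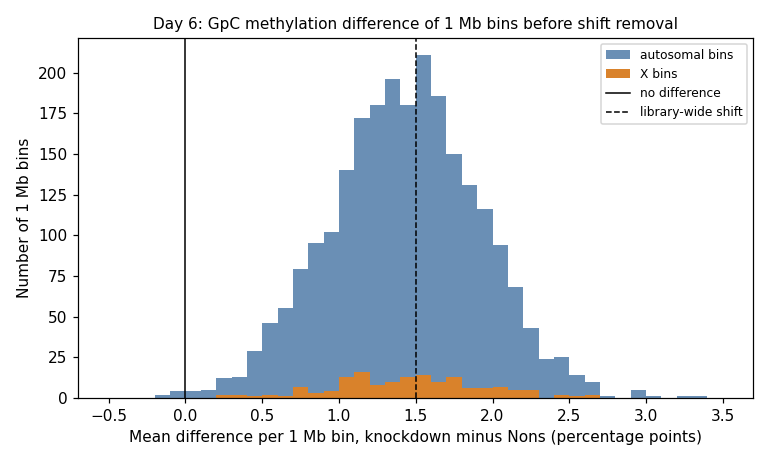
Number of 1 Mb bins (vertical axis) by the mean difference in GpC methylation between the Smarcc1 knockdown and Nons libraries at day 6 in percentage points (horizontal axis), before the shift was removed, for autosomal and X bins. The bins form 1 peak around the library-wide shift of 1.5 points (dashed line), and 99.7% of autosomal bins lie above 0 (solid line).

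A weak gradient with gene density remained. Bins without a protein-coding start averaged -0.141 points (SD 0.516, 283 bins), those with 1 to 5 starts -0.173 (SD 0.476, 986 bins), those with 6 to 15 starts 0.0149 (SD 0.474, 765 bins) and those with 16 or more 0.0846. Over bins the difference correlated at 0.216 with GC content and at 0.180 with the number of starts, and at days 4, 5 and 7 the correlation with GC was 0.119, -0.411 and 0.549. GC content moved with the gradient also over windows. The lowest of 10 GC classes (median GC 35.5%) was at -0.103 points (SD over autosomes 0.116) and the second highest (48.4%) at 0.133 (SD 0.168). The highest class (52.3%) was at 0.105 (SD 0.240), and each of these values was smaller than its SD. The part of GC content in the difference between bins was not tested.

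Genomic classes differed from the library-wide shift by little. Protein-coding promoters, meaning the 19157 autosomal windows that hold the start of a protein-coding gene, had a median of 16.3% in the knockdown and 14.5% in Nons, which left a shift-removed median of 0.125 points. That value was smaller than its SD over autosomes (0.543), and it was above 0 on 11 of 19 autosomes. Promoters of long non-coding RNAs (lncRNAs) were at -0.0750 points (SD over autosomes 0.509, 7908 windows). Windows inside protein-coding genes were at 0.0657 (SD 0.0962, above 0 on 15 of 19 autosomes), those inside lncRNA genes at -0.107 (SD 0.184, 3 of 19), and intergenic windows at -0.0612 (SD 0.0879, 4 of 19). These directions depended on the centring, since scaling by the ratio of the library means put intergenic windows at 0.160 (SD 0.107), and centring on the library medians put gene bodies at 0.00233. Starts of pseudogenes (0.0628, SD 0.328) and of small RNA genes (0.157, SD 0.617) stood within their spread.

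**Figure D2:**
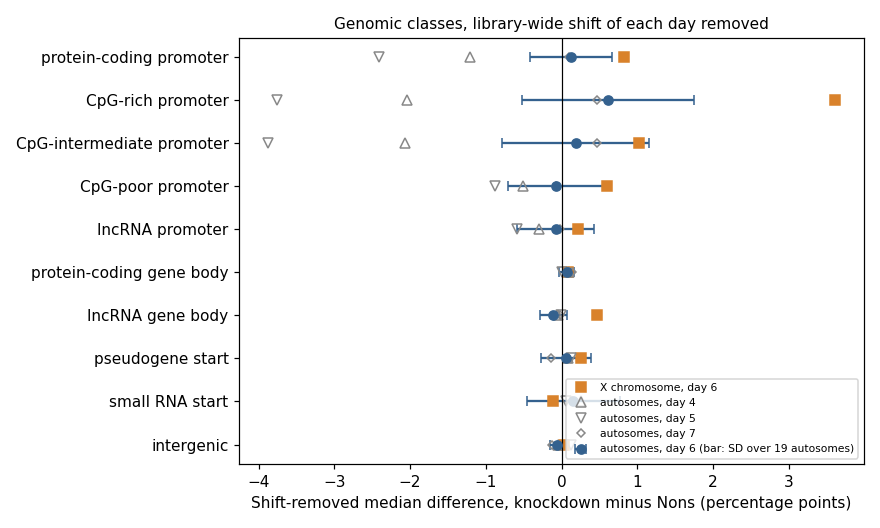
Shift-removed median difference between knockdown and Nons in percentage points (horizontal axis) for 10 genomic classes (rows). Circles with bars are autosomes at day 6 with the SD over 19 autosomes, squares the X chromosome at day 6, and open triangles and diamonds autosomes at days 4, 5 and 7, each day with its own shift removed. At day 6 the autosomal circles lie within 0.612 points of 0, while promoter classes reach -2.41 (all protein-coding) and -3.88 (CpG-intermediate) at day 5.

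Promoters were split by the sequence around the start into CpG-rich, CpG-intermediate and CpG-poor. CpG-rich promoters belong mostly to housekeeping and developmental genes and are kept open, while CpG-poor promoters are often tissue-restricted. The level followed this order in both libraries, with medians of 21.4%, 19.7% and 12.8% in the knockdown and 19.4%, 17.9% and 11.1% in Nons. Shift-removed differences were 0.612 points for CpG-rich promoters (SD over autosomes 1.13, above 0 on 14 of 19), 0.184 for CpG-intermediate (SD 0.972) and -0.0680 for CpG-poor promoters (SD 0.639). None exceeded its SD over autosomes. The same CpG-rich promoters had medians of -2.04, -3.75 and 0.465 points at days 4, 5 and 7, and all protein-coding promoters -1.21, -2.41 and 0.0983. The lower promoter values of days 4 and 5 were therefore not seen in the medians of day 6, although the difference between days has no replicate behind it.

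Autosomal promoters grouped by their day 4 difference had similar medians at day 6. When autosomal protein-coding promoters were divided into 4 groups of equal size by their day 4 difference, the lowest group (median -12.1 points at day 4) stood at 0.276 at day 6 (SD over autosomes 1.11) and the highest (9.28 at day 4) at 0.467 (SD 0.754). On the X the lowest group of day 4 (196 windows) was at 2.23 points at day 6 and the highest (212 windows) at 0.415. Window by window, the day 6 difference of protein-coding promoters correlated with days 4, 5 and 7 at 0.005, -0.005 and 0.004. These correlations are across windows, which are not independent replicates. Differences of neighbouring windows correlated at only 0.009. The grouping therefore cannot tell a change that did not persist from noise in single windows.

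What set promoters apart at day 6 was their spread and not their median. Of 28101 promoter windows of protein-coding and lncRNA genes, X included, 16.2% were at least 10 points higher and 15.8% at least 10 points lower, both above the shares of all autosomal windows. The SD over windows was 12.3 points at protein-coding promoters and 15.6 at CpG-rich promoters. Spread followed the level of accessibility: promoters in the lowest quartile of level, taken from the 7 other libraries, had an SD of 8.15 points and those in the highest quartile 15.3. In that highest quartile 25% of promoters were at least 10 points higher and 23.4% lower. Windows without a start within the same bounds gave 19.7% and 18.0%. Their level was lower, with medians of 18.4% in the knockdown and 16.2% in Nons, beside 22.3% and 20.6% at those promoters. Shift-removed medians of promoters went from -0.0892 points in the lowest quartile (SD over autosomes 0.682) to 0.476 in the highest (SD 0.942). Bidirectional promoters, where 2 protein-coding genes start within 1 kb on opposite strands, were at 1.17 points (SD over autosomes 2.04, 779 windows), also within their spread.

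Around start sites both libraries had an accessible peak of similar height once the shift was subtracted. Mean methylation of autosomal windows centred in the first 1 kb after a protein-coding start was 19.2% in the knockdown and 17.8% in Nons, and in the 1 kb before it 18.7% and 17.1%. Shift-removed means were -0.0834 points after the start (SD over autosomes 0.578) and 0.146 before it (SD 0.687). The lowest distance class was that from 1 to 2 kb downstream, with -0.364 points (SD 0.671). The excess of windows within 1 kb of a start over those 20 to 50 kb away was 0.000918 points (SD over autosomes 0.464). With ratio scaling in place of subtraction it was -0.823 (SD 0.521), that is, a lower peak in the knockdown. Farther out the values were small and even among chromosomes. Windows more than 100 kb upstream of the nearest start averaged -0.206 points (SD 0.137, above 0 on 2 of 19 autosomes) and those more than 100 kb downstream -0.188 (SD 0.0993, above 0 on 0 of 19). The mean over all autosomal windows was -0.0540, and with differences centred on means the windows beyond 100 kb were at -0.0823 (SD 0.0908), within their spread. Their mean GC content was 40.2% and 41.0%, beside 52.1% in the first 1 kb after a start.

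**Figure D3:**
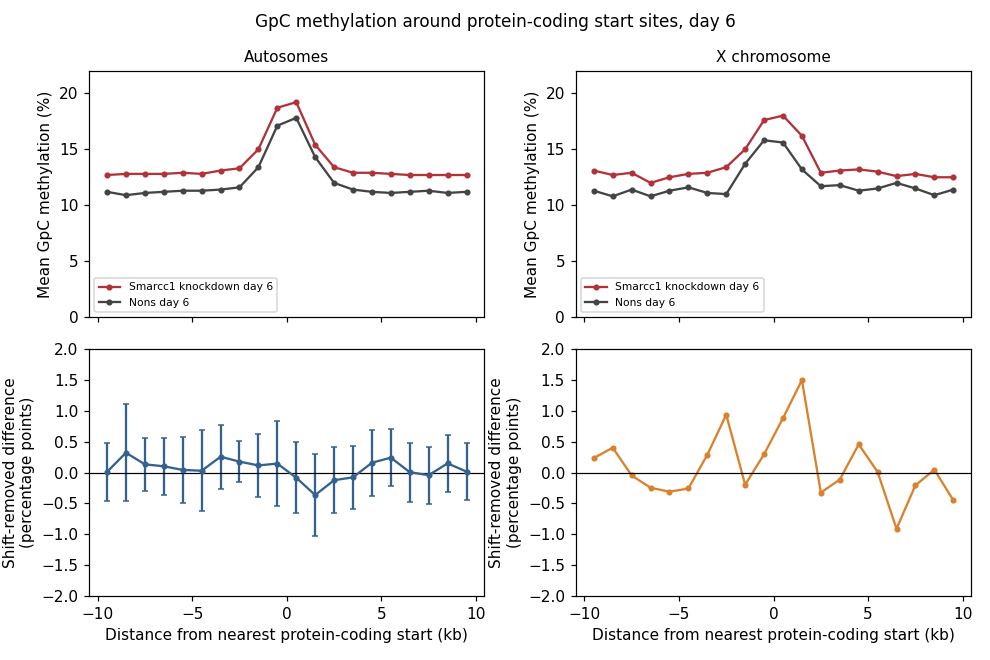
Mean GpC methylation in percent (top) and shift-removed difference in percentage points (bottom) by distance from the nearest protein-coding start in kb, in classes of 1 kb, for autosomes (left, bars are the SD over 19 autosomes) and the X chromosome (right, no error available). Both libraries peak within 1 kb of the start, autosomal differences stay within their bars, and the X difference is largest from 1 to 2 kb downstream at 1.5 points.

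X promoters stood near the upper end of the chromosomes. Protein-coding promoters of the X had a median of 15.2% in the knockdown and 12.9% in Nons (893 windows), a shift-removed 0.828 points that ranked 18 of 20 chromosomes counted from the lowest, with autosomes from -0.705 to 1.28. Together with lncRNA promoters the X was at 0.75 (1036 windows) and ranked 19 of 20. All X windows as a whole were at 0.0738, rank 16. The higher values were not confined to starts: X windows without a start in the highest quartile of accessibility were at 2.61 points (371 windows, 25.3% higher and 15.1% lower), above X promoters of that quartile (1.83), while the same kind of autosomal window was at 0.406 (SD over autosomes 0.569). By direction 16.2% of X protein-coding promoters were at least 10 points higher and 14.0% lower, against 18.0% and 17.3% on autosomes. Beyond the start the X means were 0.883 points in the first 1 kb downstream (287 windows) and 1.5 from 1 to 2 kb (330 windows), where the autosomes had their lowest value. Single autosomes such as chromosome 19 (protein-coding promoters 1.28) and chromosome 8 (0.987) reached as far as the X, so its position was not outside the spread between chromosomes.

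CpG-rich X promoters, singled out after the values were seen, had a median above that of every autosome. Their 71 windows had a shift-removed median of 3.61 points (knockdown 21%, Nons 18.1%), the highest of 20 chromosomes, with autosomes from -2.0 (chromosome 13) to 2.45 (chromosome 3). The difference of the paired windows exceeds that of the medians because it is taken window by window. Of the 71 windows 26.8% were at least 10 points higher and 18.3% lower, beside 25.2% and 22.9% of autosomal CpG-rich promoters. The result rests on far fewer windows than any autosome, which had 122 to 389, and a median over fewer windows varies more. The mean of the 71 windows was 2.77 points, with an SD over windows of 13.5. CpG-intermediate X promoters were at 1.02 points (285 windows, rank 17) and CpG-poor ones at 0.600 (543 windows, rank 17). At the other days the same 71 windows had medians of 2.03, -1.51 and 1.80 at days 4, 5 and 7, so they were above the library at 3 of 4 days.

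Named after their values were seen, the CpG-rich X promoters with the largest positive differences were those of Sh3kbp1, an adaptor of receptor endocytosis (45.5% in the knockdown, 7.69% in Nons), Hmgb3, a chromatin protein (51.2% and 14.7%), Siah1b, a ubiquitin ligase (59% and 25.6%), and Ddx3x, an RNA helicase that escapes X inactivation (43.9% and 18.1%). The lowest was Rlim, the ubiquitin ligase that promotes Xist induction (31.4% and 59.5%), and Fmr1, an RNA-binding protein, was also among the lower ones (21.3% and 40%). The Sh3kbp1 and Rlim stretches printed above lie inside these windows. Both directions were thus met within the class, and the knockdown and Nons ranges overlapped.

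Along the X the promoter values were uneven. Protein-coding promoters in segments of 20 Mb had shift-removed medians from -1.12 points at 100 to 120 Mb, the segment that holds Xist (109 windows), to 4.40 at 160 to 180 Mb (53 windows). In that highest segment 17 of 53 promoters were at least 10 points higher and 9 lower. Of all 893 X protein-coding promoters 145 were higher (16.2%) and 125 lower (14.0%), with an SD over windows of 10.6 points. The segment is the extreme of those compared, and a median over few windows varies more. The first segments, 0 to 20, 20 to 40 and 40 to 60 Mb, stood at 0.950, 1.16 and 2.08, and those from 60 to 80 and 80 to 100 Mb at -0.734 and -0.0260. All windows of the same segments ranged only from -0.110 to 0.348.

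**Figure D4:**
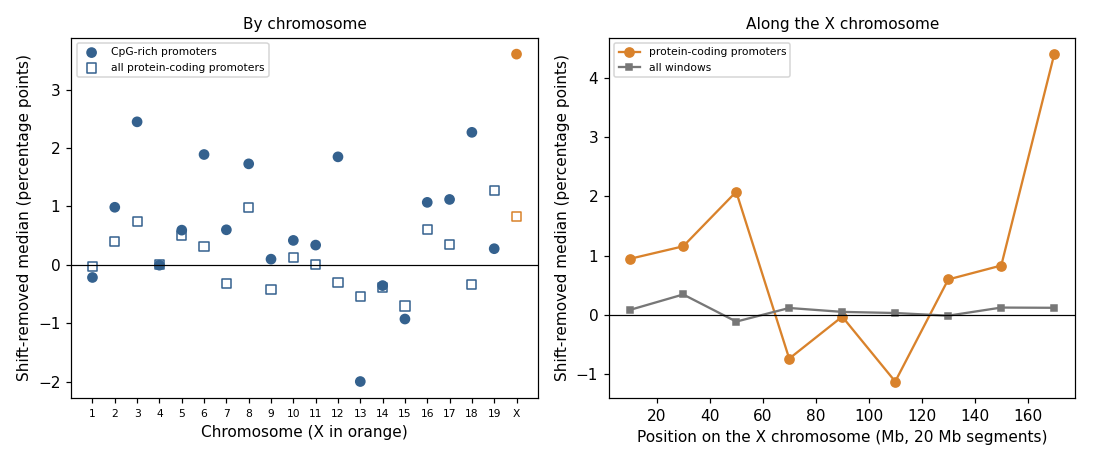
Left, shift-removed median difference in percentage points of CpG-rich promoters (filled circles) and all protein-coding promoters (open squares) for each chromosome, with the X in orange. Right, the same for protein-coding promoters and for all windows in 20 Mb segments along the X (horizontal axis in Mb). CpG-rich X promoters stand at 3.61, above the autosomal range of -2.0 to 2.45, and the last X segment at 4.40.

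The genes central to the design showed no common direction. The promoter window of Smarcc1 (chr9:110117185-110119155), which also covers exons of Dhx30, was at 33.3% in the knockdown and 18.6% in Nons, and that of Smarca4 (chr9:21616147-21618277) at 21.3% and 14.0%. Promoter accessibility does not show whether Smarcc1 RNA was depleted, and expression was not analysed here. The Xist start, in a window (chrX:103482394-103485425) that also lies in an exon of its antisense gene Tsix, was at 6.33% in the knockdown and 6.96% in Nons, below the autosomal median of each library. It had been at 22.9% at day 0 and at 23.9% and 20.1% in Nons and knockdown at day 4. The Tsix start was similarly low at day 6, with 5.26% and 3.92%. Hprt, an X-linked housekeeping gene, was at 15.4% in the knockdown and 4.08% in Nons. Their shift-removed differences, 13.2 points for Smarcc1, 5.78 for Smarca4, -2.12 for Xist, -0.155 for Tsix and 9.81 for Hprt, were all of a size that single promoter windows reached in both directions.

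Markers of cell state were read at their promoters, as a check of the labelled cell type that is weaker than expression. Of 8 naive pluripotency markers 5 were above the autosomal median in Nons and 6 in the knockdown, with median levels of 17.8% and 19.4%. Sox2 was at 56.2% in the knockdown and 4.55% in Nons, but at 18.6% and 34.9% at day 4 and at 28.6% and 42.4% at day 7, so its day 6 order was the reverse of both. Nanog was at 17.2% and 3.23%, and Pou5f1, which encodes Oct4, at 21.5% and 20.3%. Esrrb (12.2% and 24.5%) and Tfcp2l1 (11.9% and 23.8%) went the other way. After shift removal 4 of the 8 naive markers were at least 10 points higher and 2 lower. Of 4 formative or primed markers 3 were above the median in each library, with Otx2 at 28.7% and 11.1% and Pou3f1 at 7.14% and 26.2%. Of 9 lineage markers 7 were above it in each, with medians of 22.7% in the knockdown and 24.3% in Nons. At least 10 points higher or lower were 3 and 1 of the 4 formative or primed markers and 1 and 3 of the 9 lineage markers. Of all promoter windows 16.2% were higher and 15.8% lower, and of autosomal CpG-rich promoters 25.2% and 22.9%. The groups are small, and their counts were not tested against these shares. Open promoters are found at silent developmental genes too, so these levels did not separate cell types.

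Gene lists were compared with all 28101 promoter windows, which had a median of 0.0784 points with 50.3% above 0. Of 34 lists 20 had a higher median. The medians of 2 lists, the proteasome and the histones, lay more than 2 SE from 0, with the SE being that of the mean. By its mean (4.14, SE 2.14) the histone list lay within 2 SE, whereas the proteasome mean was 4.06 (SE 1.55). The SE treats windows as independent, and among 34 lists a few can pass such a limit by spread alone. Counts of members at least 10 points higher or lower are to be read against the 16.2% and 15.8% of all promoter windows. Both shares rose with the level of accessibility, and among autosomal CpG-rich promoters they were 25.2% and 22.9%. The background was not matched to the level of each list, so for lists of open promoters these larger shares are the nearer comparison. Where a list's mean is given beside its median, it is centred on the autosomal mean difference. Proteasome subunits, which form the protease that degrades ubiquitinated proteins, had a median of 3.67 points (SE 1.55 over 38 windows), 29 of 38 windows were above 0, 11 were at least 10 points higher (28.9%) and 4 lower (10.5%). At days 4, 5 and 7 the list was on the other side, at -2.37, -1.21 and -1.12. Psmb1, a catalytic core subunit whose window also holds the start of Tbp, was the highest (32.6% and 4.92%) and Psmd2, of the regulatory particle, the lowest (12.4% and 26.7%). Mitochondrial ribosomal proteins were at 2.32 (SE 1.32, 17 higher and 11 lower of 77), cytosolic ribosomal proteins at 1.39 (SE 1.48, 21 higher and 13 lower of 78) and nuclear-encoded respiratory chain subunits at 0.224 (SE 1.35, mean -1.65, 13 higher and 19 lower of 94). A list of common reference genes had the opposite balance of counts, with 1 window higher and 7 lower of 25, and a median of -0.398 (SE 2.38).

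Replication-dependent histones, which are expressed in S phase from clusters of short genes, had a median of 4.60 points (SE 2.14), with 21 windows at least 10 points higher (42.0%) and 9 lower (18.0%) of 50. These windows were at 27.7% in the knockdown and 21.8% in Nons. Hist2h3b was the highest (54.2% and 16.7%) and Hist1h3a the lowest (20.2% and 51.7%). Several histone genes share a window, so 67 genes gave 50 values. The same list was at -7.57, -1.61 and -0.928 points at days 4, 5 and 7. Hox genes, the homeobox genes that pattern the body axis, had a median of 3.17 (SE 2.11) with 9 windows higher and 9 lower of 36, but a mean of -0.0456. Kinesins, the microtubule motors, were at 3.78 (SE 2.42, 10 higher and 8 lower of 38), with a mean of 1.15. Mediator subunits, which bridge transcription factors and RNA polymerase II, were at 2.64 (SE 2.33, 8 higher and 3 lower of 30), and from 0.807 without windows at 0 or 100 to 5.98 with promoters taken as windows centred within 1 kb of a start.

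BAF and Polycomb genes had medians below 0. Those of histone demethylases (1.96 points, SE 3.35), chromodomain remodellers (1.53, SE 6.24) and the DNA methylation machinery were above 0, although the means of the first 2 were -2.06 and -0.702. BAF subunits themselves were at -3.09 points (SE 2.25), with 4 windows at least 10 points higher, namely Smarcc1, Arid1b, Arid2 and Bicra, and 8 lower of 29, among them Arid1a, Smarce1, Actl6a and Phf10. Arid2 was the highest (28.2% and 9.52%) and Bcl7c the lowest (4.55% and 36.2%). Polycomb genes, whose products deposit the repressive marks H3K27me3 and H2AK119ub, were at -2.48 (SE 2.54, 3 higher and 10 lower of 30), and at -5.40 over windows with a value in all 9 libraries, with Bmi1 highest (54.5% and 33.3%) and Cbx8 lowest (13.8% and 54.5%). Beside the background of 16.2% higher and 15.8% lower, 33.3% of Polycomb promoters and 27.6% of BAF promoters were lower. Of autosomal CpG-rich promoters 22.9% were lower, so part of the distance from 15.8% is also seen in open promoters at large. Similar shares were lower in the lists named here with medians above 0. They were 6 of 17 histone demethylases (35.3%), 3 of 9 chromodomain remodellers (33.3%) and 4 of 15 DNA methylation genes (26.7%). Each of those lists also had 3 windows higher. The lower shares thus did not set BAF and Polycomb genes apart from them. Above 0 were 15 of 30 Polycomb windows and 11 of 29 BAF windows, beside 50.3% of all promoter windows. At days 4, 5 and 7 the Polycomb list stood at -3.52, -0.333 and 1.80 points and the BAF list at -2.59, -1.97 and 3.18. The DNA methylation machinery was at 2.30 (SE 3.25, mean 0.472), with the de novo methyltransferase Dnmt3b highest (21.6% and 0) and Mbd1, a reader of methylated CpG, lowest (10.9% and 32.7%).

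Lists tied to pluripotency, lineage and X inactivation had large errors, and none lay more than 2 SE from 0. Pluripotency genes were at -0.271 points (SE 3.32), with Sox2 highest and Sall4 lowest (9.33% and 35.8%), and 7 of 23 windows were higher and 4 lower. Their sign was not stable, with 5.79 for windows centred within 1 kb of a start. Formative and primed genes had a median of 6.91 from only 9 windows (SE 4.60), 4 of which were higher and 1 lower, and of 0.186 for windows centred within 1 kb of a start. Lineage transcription factors were at -0.621 (SE 1.59, mean 0.873, 12 higher and 10 lower of 56), and Wnt, Fgf and Bmp ligands, the signals that direct gastrulation, at -2.14 (SE 1.88, 5 higher and 11 lower of 51). X inactivation regulators were at -1.99 (SE 3.55, 6 higher and 7 lower of 25), with the histone methyltransferase Setdb1 highest (32.1% and 0) and Hdac3, the deacetylase, lowest (14.3% and 70.6%). Genes that escape X inactivation were at -2.12 (SE 3.64, mean 1.35), with 3 higher and 3 lower of 13 and with Ddx3x highest and Kdm5c, a histone demethylase, lowest (14.5% and 32.7%). Imprinted genes were at 1.95 (SE 2.05, 9 higher and 7 lower of 40).

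The largest gene families lay near 0 with small errors. Olfactory receptors were at 0.276 points (SE 0.220, 1078 windows) with 8.63% higher and 8.16% lower, vomeronasal receptors at 0.218 (SE 0.411, 317 windows) with 11% and 6.94%, and Zfp genes at -0.0897 (SE 0.643, 379 windows) with 16.1% and 17.9%. Olfactory receptor promoters were closed, with medians of 11.9% and 10%, close to the autosomal medians, whereas Zfp promoters were at 18.4% and 16.3%.

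**Figure D5:**
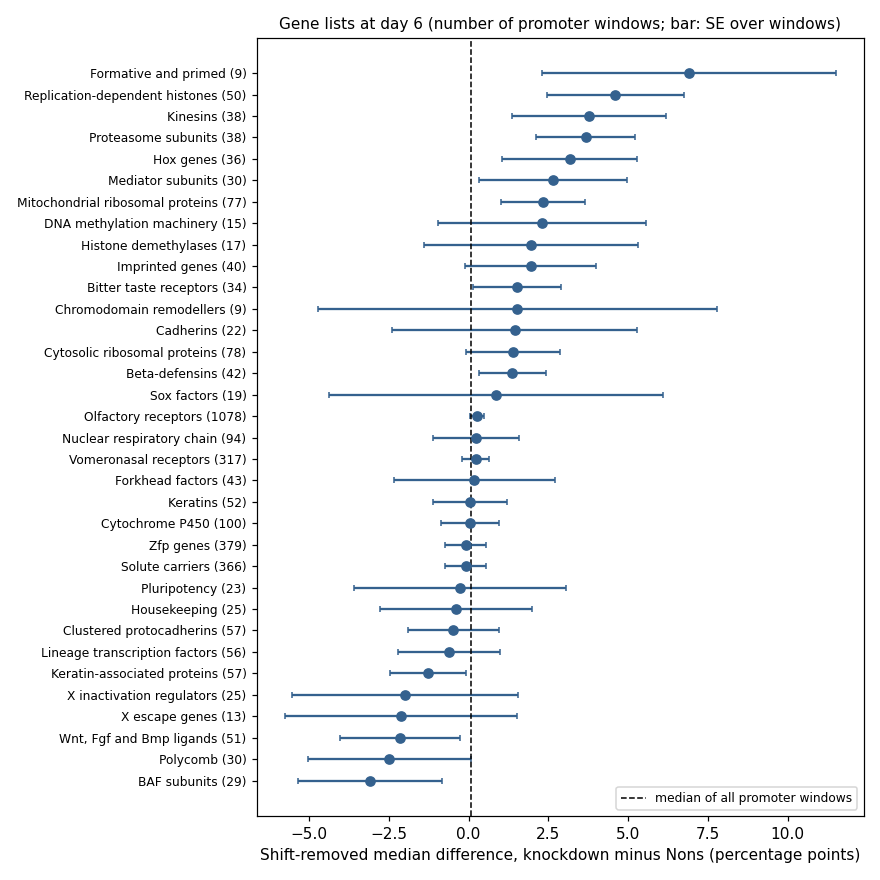
Shift-removed median difference between knockdown and Nons in percentage points (horizontal axis) for 34 gene lists (rows, with the number of promoter windows), with the SE over windows as bars. The 4 longest lists, of 317 to 1078 windows, lie between -0.0919 and 0.276, near the median of all promoters (dashed, 0.0784), and lists of under 60 windows spread from -3.09 (BAF subunits) to 6.91 (formative and primed genes).

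Single promoters were named where the start window and both neighbours lay on the same side, which held for 4869 of 19101 protein-coding promoter windows (25.5%), 2495 of them higher and 2374 lower. That share is near what 3 independent signs would give. The highest mean over the 3 windows was at Kcna6, a voltage-gated potassium channel. Its start window, chr6:126739588-126741187, which covers coding and UTR exons of the gene and an exon of Gm26673, was at 80.6% in the knockdown and 6.06% in Nons, with neighbours at 15.1% and 7.79% on one side and 23.6% and 12.7% on the other. The lowest was at Kmt5c, the methyltransferase that sets H4K20me3, where the start window chr7:4739598-4742104 was at 27.5% in the knockdown and 80% in Nons. Their promoter stretches are printed above. At Kcna6 the difference lay mostly in 1 window, whereas at Kmt5c the neighbours differed by more (7.78% and 21.9%, 0 and 27.3%). Neighbours on the same side were required of every promoter named here, so their side adds no support.

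Sox9, a transcription factor of chondrocyte and testis development, was higher in each of its 3 windows, as the naming rule required. Its start window chr11:112781708-112784055, shared with the start of BC006965, was at 55.4% in the knockdown and 17.0% in Nons, and the neighbours were at 32.9% and 14.3% and at 34.1% and 12.9%. A window shared by Mms19, an iron-sulfur cluster assembly factor, and Ubtd1 was at 56.0% and 12.5%, and the other promoters named on this side were Mamld1 on the X, Slc9a3r2, Rasgef1a, Adcy9 and Ndufa4l2. Bcl6b, a transcriptional repressor, was lower in each of its windows, again as the rule required. It was at 14.0% in the knockdown and 62.8% in Nons at the start (chr11:70229404-70231864). The neighbours were at 20% and 39.5% and at 12.2% and 29.8%. At Pax9, a developmental transcription factor, the start window differed little (12.5% and 17.4%), and the difference lay in the neighbours. The others named on the lower side were Atp5d, Ctdsp2, Smoc2, Tmem191c and Gm3468. Of the 16 promoters 11 had the same sign at day 4, 9 at day 5, and 7 of 13 with a value at day 7. They were the extremes of 19101 promoters whose mean over 3 windows had an SD of 5.89 points, and none has a second library behind it.

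Gene bodies gave steadier values. Over 4657 bodies of at least 20 windows the shift-removed mean had an SD of 1.34 points, with a median SE over windows of 1.23, and 7.19% were at least 2 points higher and 6.25% at least 2 points lower. The spread narrowed with length, from an SD of 1.58 in bodies of 20 to 39 windows to 0.565 in the 288 bodies of 150 or more, where 0 bodies were beyond 2 points and the range was -1.72 to 1.6. Lowest of all were Igf2bp1, an RNA-binding protein of fetal tissue (12.3% in the knockdown and 17.5% in Nons, -6.71 points, SE 3.24), Cbx7, the Polycomb subunit typical of mESCs (12.8% and 17.7%, -6.36, SE 1.82), and Rara, the retinoic acid receptor alpha (13.0% and 17.1%, -5.52, SE 2.91), followed by Nt5dc3 and Slc6a17. Highest were 4931422A03Rik (19.3% and 12%, 5.83, SE 2.30), Lzts1 (18.1% and 10.8%, 5.79, SE 2.74), Fcgbp, Camkk2, a calcium-dependent kinase, and Scarb1, the HDL receptor (14.7% and 8.39%, 4.81, SE 1.40). At Cbx7 22.7% of windows were above 0 and at Scarb1 70.0%. At day 4 Cbx7 was at -2.83 points and Scarb1 at 0.720, and over all bodies the day 6 mean correlated at 0.061 with day 4, 0.013 with day 5 and 0.021 with day 7. X bodies did not stand apart, with a median of -0.0819 over 174 bodies beside -0.00414 on autosomes, and 11 were at least 2 points higher and 7 lower.

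The most extreme 1 Mb bins held few or clustered genes. Lowest was chr16:80000000-80999999 without a protein-coding start (11.5% in the knockdown and 11.7% in Nons, -1.69 points, SE 0.524), followed by chr2:22000000-22999999, which holds Myo3a, Gad2, Apbb1ip and Pdss1 (-1.64, SE 0.446), chr3:150000000-150999999 without a start (-1.56, SE 0.447), and chr10:51000000-51999999 with Rfx6 and Gprc6a (-1.55, SE 0.484). Highest was chr4:146000000-146999999, a cluster of Zfp genes (14.7% and 11.4%, 1.82, SE 0.688, only 125 windows), then chr12:18000000-18999999 (1.70, SE 0.699), chr13:27000000-27999999 with 21 starts of the prolactin family (12.4% and 9.31%, 1.59, SE 0.488) and chr6:20000000-20999999 without a start (1.5, SE 0.470). In each of these bins odd and even windows had the same sign, as the choice of extremes favours. On the X the lowest bin was chrX:126000000-126999999 (-1.21, SE 0.493) and the highest chrX:154000000-154999999, which holds Samt and Magea genes (1.12, SE 0.424). Over all bins the day 6 difference correlated at 0.058 with day 4, -0.013 with day 5 and 0.185 with day 7.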

How the data were processed

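Per the labels and the study's methods, fixed nuclei were treated with a GpC methyltransferase, libraries were made with the Accel-NGS Methyl-Seq kit, and reads were trimmed with trim_galore and aligned with Bismark to mm10 with FVB and CAST variants masked. The submitters' processing notes also name bcl2fastq. Versions of Bismark and bcl2fastq were not given in the sources used here. The deposited values are percent GpC methylation per window, which the authors computed in Seqmonk over both alleles, in windows of 200 read positions per the file name. The study's methods describe another number of positions and an enrichment normalization, but library medians differed widely, so the values were treated as not normalized between libraries. If a normalization had been applied, the library-wide shift would be what it left. Read depth is unknown.

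Both value columns were matched by sample title. Windows were placed on GRCm38 and GENCODE M21, with 0 window ends beyond a chromosome. The median autosomal difference was subtracted, and medians (means for bins and distances) were taken per class with python 3.11.15, numpy 2.4.6 and pandas 2.3.3. SD over autosomes describes spread along the genome within these 2 libraries, not between libraries. A start is the 5′ end of a gene. CpG-rich starts had, within 500 bp on either side, a CpG observed to expected ratio of at least 0.75 and at least 55% GC, and CpG-poor starts a ratio under 0.48. SEs are those of the mean over windows. Sizes of 10 points (windows), 2 (bodies) and 1 (bins) served as descriptive limits. The members, gene lists and named-gene rule were chosen with earlier results of these data known. Named were Smarcc1, Xist, Tsix, Smarca4 and Hprt, the 8 promoters on each side with the largest mean over 3 windows of 10 kb or less, list extremes in lists of up to 60 windows, 5 bodies and 4 bins on each side, and 1 X bin on each side. On simulated libraries 4 of 4 known quantities were recovered within 0.5 points. The simulated noise was independent, normal and of 1 size in all windows, with less spread than the promoter windows had. The tolerance was larger than most class medians, so recovery of differences that small was not tested. Alternatives are given in the closing section.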

Additional observations from a re-analysis of the deposited data

Results flagged for a closer look

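The library-wide shift at day 6 was 1.5 points, with the knockdown above Nons, and at days 4 and 5 it was -2.80 and -1.08 points, with the knockdown below Nons. The sign of the whole-library difference thus changed between days, and with 1 pair of libraries a day this difference between days was not tested. After each day's shift was removed, protein-coding promoters were at 0.125 points at day 6 and at -1.21 and -2.41 at days 4 and 5, and CpG-rich promoters at 0.612 against -2.04 and -3.75. These differences between days were not tested either, and both day 6 values lay within their SD over autosomes (0.543 and 1.13).

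Windows outside the autosomes and the X were not part of the comparisons. The 4 mitochondrial windows, DNA without nucleosomes, averaged 81.5% in the knockdown and 79.1% in Nons, a difference of 2.39 points before any shift was removed, against -1.66, -0.0372 and -0.705 points at days 4, 5 and 7. The 237 Y windows carried values although the cells were female, with medians of 11.1% in the knockdown and 9.59% in Nons, close to the autosomal medians of the same libraries.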

How the results depend on the processing

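Medians, the filter on windows, the centring, the scaling and the promoter definition were each changed in turn. Of 101 alternative values of the 11 main results 93 moved by less than the SD over autosomes, and for the count by less than 1.5 times. A reversal was scored only for a main value larger than that SD, and 0 were found. Most main values were smaller than it, so their changes of sign could not be scored. The shift ranged from 1.42 (without windows at 0 or 100) to 1.5 points. Ratio scaling multiplied the Nons values by the ratio of means instead of subtracting a shift. With it the start site excess was -0.823, the gene body median 0.261, the intergenic median 0.160 and the SD of 1 Mb bins 0.525. That SD was 0.550 for bin medians and 0.671 for 500 kb bins. At 20 points in place of 10, windows beyond the limit were 16229 instead of 156052. Promoter medians stayed within their spread but not on 1 side of 0, from -0.142 to 0.206 for protein-coding promoters and from -0.277 to 0.793 for CpG-rich ones, both lowest under ratio scaling. X promoters lay between 0.524 and 0.921. For 2 results chosen after seeing the data, CpG-rich X promoters ranged from 2.82 to 4.74 points, and windows beyond 100 kb from -0.259 to -0.0823. Of 340 alternative list values 19 moved by more than the SE. The sign turned in 32, spread over 16 of 34 lists, each with a main value within 2 SE of 0. Under ratio scaling or means, intergenic windows and Hox genes were among those that changed side. No paired analysis was possible because there was 1 library on each side, so replicates could not be left out either. Depth per window is unknown, so sparse windows could be removed only through the values 0 and 100.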
